A study of Mus musculus with 16 samples.

Results

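The 39 genes described here are mouse genes that type I interferon switches on, together with 3 of the regulators that carry the signal (Irf7, Irf9 and Stat2). They were taken by gene symbol from a list drawn up with earlier results of these data known, and all 39 were found among the 45706 gene IDs of the count table. All 39 also passed the low count filter of every test, so no member is missing from a count below. The data are RNA read counts from 16 bone marrow libraries. The series concerns haploinsufficiency of Gata2, in which one copy of the gene for this blood stem cell transcription factor is not functional, and the labels call the groups Gata2 and WT without naming the allele. LSK cells, the marrow fraction with no lineage markers but with Sca-1 and Kit on the surface, gave 3 libraries of Day0_Gata2, 2 of Day0_WT, 2 of Day2_Gata2 and 3 of Day2_WT. Marrow cells carrying the CD45.2 form of a leukocyte surface protein gave 3 libraries each of Week2_Gata2 and Week2_WT. The series design describes low numbers of LSK cells placed in lethally irradiated WT hosts. The sources used here do not give what happened to the cells between Day0 and Day2, the animals' age and strain, or whether libraries came from separate animals. The p-values therefore measure the spread between these libraries, part of which may be technical.

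Type I interferons bind a receptor made of Ifnar1 and Ifnar2, and the kinases Jak1 and Tyk2 then activate transcription factors, among them Stat2. Stat2 and Irf9 act in a complex that binds the interferon-stimulated response element (ISRE) in the promoters of antiviral genes. Blood stem cells respond to interferon, which can draw them out of quiescence, and stem cells are also known to keep some antiviral genes on without infection. Sca-1 itself, the product of Ly6a and one of the markers used to sort LSK cells, is induced by interferon.

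The libraries differ in ways that touch every result below. LSK libraries held 19618830 to 68305582 counts and Week2 libraries 176933583 to 320717267 counts, so single genes are counted more precisely at Week2, where the spread between libraries is the larger source of error. LSK libraries labelled Gata2 did not have less Gata2 RNA, which stood at 605, 745 and 680 CPM (counts per 1000000 counts of a library, after TMM scaling of the library sizes) in Day0_Gata2 against 428 and 328 in Day0_WT, and at 488 and 733 CPM in Day2_Gata2 against 290, 261 and 258 in Day2_WT. At Week2 it was low and the groups overlapped, at 9.84 to 24.9 CPM in Week2_Gata2 and 10.5 to 16.2 CPM in Week2_WT. Gene counts do not show whether one copy is disrupted, so directions below are those of the libraries as labelled. Day0_WT replicate 1 stood apart: it had the fewest counts, 9.33% of them on 4 repeat-rich genes against 5.1 to 6.51% in the other Day0 libraries, and a correlation of 0.870 with its only partner, where other replicate pairs of LSK cells gave 0.983 to 0.993. The library names number Day2, Day0 and Week2 libraries in separate ranges, and 2 kits were used without a statement of which sample had which. A difference between times and one between such sets of libraries cannot be told apart. All 5 Day2 libraries were male by their Ddx3y counts, while Day0 and Week2 held both sexes. The female libraries were Day0_Gata2 replicate 3, Day0_WT replicate 2 and Week2_Gata2 replicate 3, with Ddx3y at 1.95, 0.0977 and 0.0346 CPM.

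Promoter sequence was read for the members, since the ISRE is how interferon reaches its target genes. A window from 250 bases before to 50 bases after the annotated start was present in the RefSeq promoter table (GRCm38.p6) for 29 of the 39 members. The ISRE was searched on both strands, as GAAA and GAAA with any 2 bases between them or as TTTC and TTTC in the same way, and 17 of the 29 members (58.6%) held at least 1 match, whereas 3.99% of 27025 genes did. The gamma-activated sequence TTCNNNGAA was found in 7 of the 29 (24.1%) and in 9.55% of all genes, and it can overlap an ISRE match. The 5 promoters below give the 200 bases before the start, 5′ to 3′ on the gene's own strand, with ISRE matches in capitals. Ddx60, Trim30a and Isg15 are shown because they had the lowest p in the fall between Day0 and Day2 in WT among members with a match. Ifit3 and Ifit3b are shown, chosen after their values were seen, because they are near copies whose reads are hard to separate. The Ddx60 stretch is chr8:61927887-61928086 (plus strand), that of Trim30a chr7:104465194-104465393 (minus), that of Isg15 chr4:156200819-156201018 (minus), that of Ifit3 chr19:34583329-34583528 (plus) and that of Ifit3b chr19:34607757-34607956 (plus).
Ddx60: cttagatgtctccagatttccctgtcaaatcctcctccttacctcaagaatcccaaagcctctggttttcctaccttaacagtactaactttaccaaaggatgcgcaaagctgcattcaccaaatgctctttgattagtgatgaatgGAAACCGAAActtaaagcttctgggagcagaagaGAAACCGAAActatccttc
Trim30a: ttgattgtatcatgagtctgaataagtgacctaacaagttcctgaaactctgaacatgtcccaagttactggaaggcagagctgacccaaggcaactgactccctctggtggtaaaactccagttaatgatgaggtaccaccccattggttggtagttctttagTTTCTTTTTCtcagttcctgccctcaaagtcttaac
Isg15: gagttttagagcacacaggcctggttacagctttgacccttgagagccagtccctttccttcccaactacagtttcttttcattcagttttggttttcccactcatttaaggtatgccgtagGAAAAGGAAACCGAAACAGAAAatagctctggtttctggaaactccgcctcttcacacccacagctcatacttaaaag
Ifit3: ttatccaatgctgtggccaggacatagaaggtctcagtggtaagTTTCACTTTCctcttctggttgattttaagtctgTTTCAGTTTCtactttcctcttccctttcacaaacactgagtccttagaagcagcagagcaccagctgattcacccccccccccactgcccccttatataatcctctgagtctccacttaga
Ifit3b: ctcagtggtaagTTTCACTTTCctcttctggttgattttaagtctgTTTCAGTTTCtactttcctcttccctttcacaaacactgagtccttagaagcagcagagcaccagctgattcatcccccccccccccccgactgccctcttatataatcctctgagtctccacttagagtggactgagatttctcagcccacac
Ddx60 had 2 separate matches, at positions -53 and -19 from the start. Isg15 had 3 overlapping matches, the first at -78, that run together into 1 block. Trim30a had a single match at -36 in the window shown, in the reverse form. Another Trim30a window of the promoter table, chr7:104446076-104446375 (minus), also held a match, at position 3 after its start. Over 168 aligned bases, 166 were identical between the Ifit3 and Ifit3b promoters (98.8%), and both carried the same pair of matches. A match in letters is a description of the sequence and not a measured binding site.

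In LSK cells the levels of the 39 genes ranged widely when counts were scaled per kilobase of exon. Ifitm3, whose product blocks viral fusion with the cell, was the highest at a mean of 456 CPM per kb over the 10 LSK libraries. Bst2 (tetherin, which holds budding virus at the membrane) followed at 89.6 and Lgals3bp, a secreted glycoprotein, at 84.8 CPM per kb. The lowest were Mx2, of the dynamin-like GTPases, at 0.873 CPM per kb, Slfn5 at 0.813 and Ifit3b at 0.336. The annotation lists Mx2 as a polymorphic pseudogene and not as protein coding. Summed over the 39 genes without the length scaling, the members made up 972 to 1191 CPM in the Day2 libraries, against 1826 to 2401 CPM in the Day0 libraries, so the 2 sets did not overlap. Measures of library make-up moved with this split. The number of genes with any count was 19266 to 21944 in the Day2 libraries and 22150 to 30564 in the Day0 libraries. The share of counts on the 4 repeat-rich genes was 2.8 to 4.39% at Day2 and 5.1 to 9.33% at Day0. The mitochondrial share was 1.01 to 1.41% at Day2 and 0.462 to 0.653% at Day0 in all but Day0_WT replicate 1, which had 2.01%. Their part in the fall was not tested.

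**Figure D1:**
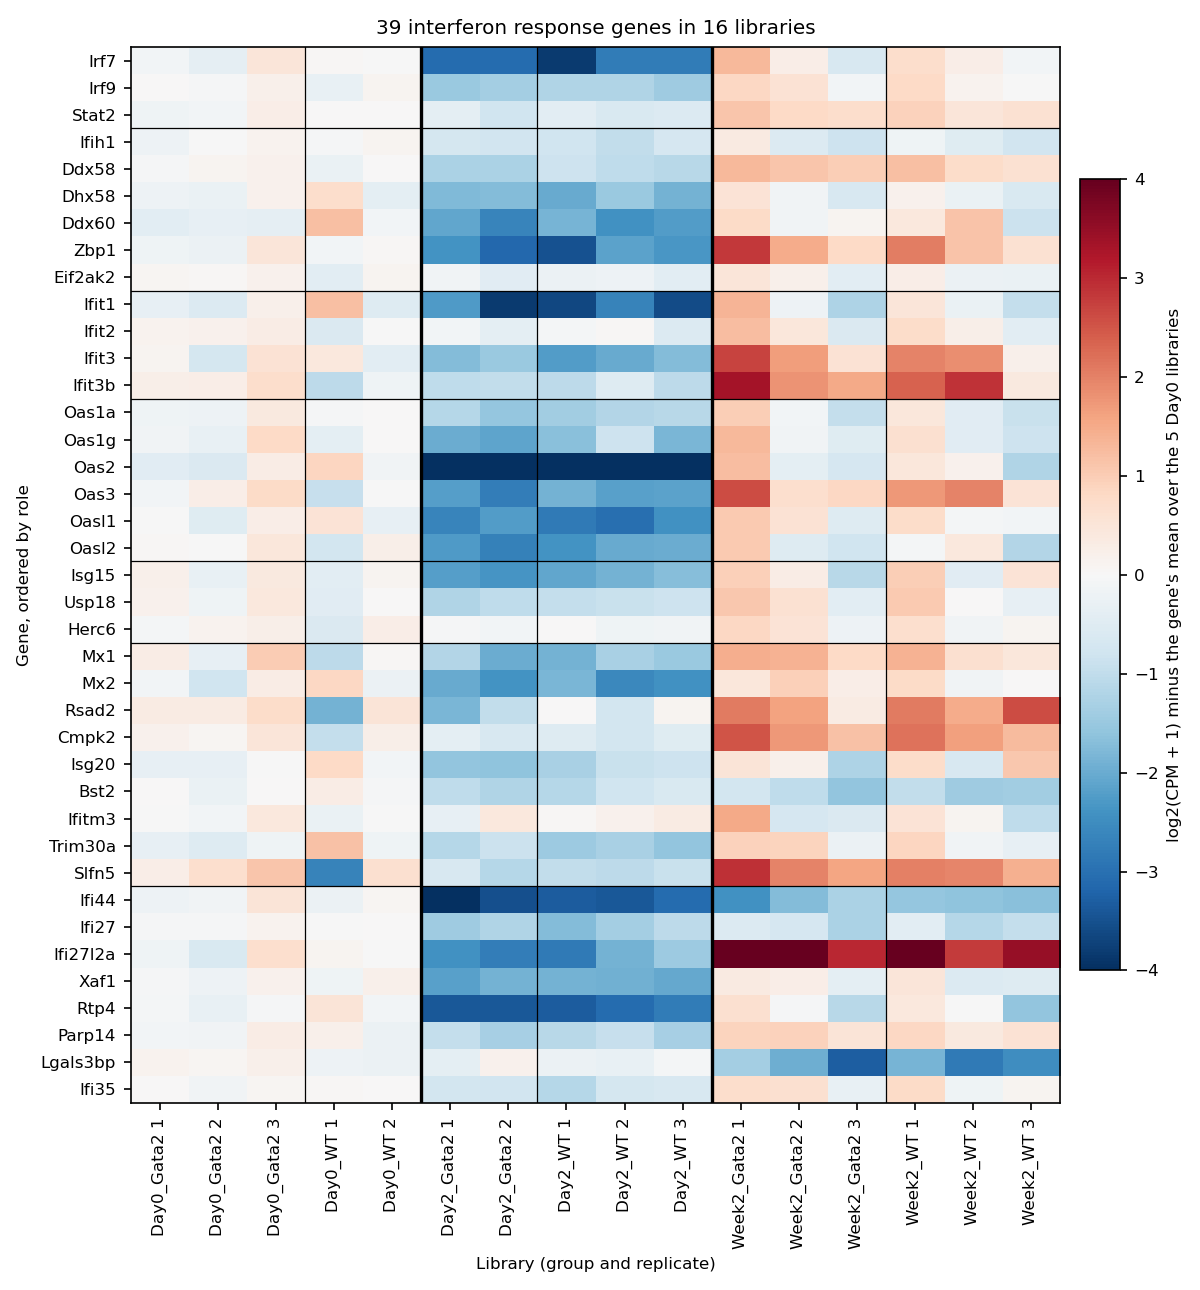
Each row is 1 of the 39 genes, ordered by role, and each column 1 of the 16 libraries; colour gives log2(CPM + 1) minus the gene's mean over the 5 Day0 libraries, on a scale that stops at 4 in either direction. Most rows turn blue in all 5 Day2 columns, and Ifi27l2a, Ifit3b and Slfn5 are darkest red at Week2.

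The largest pattern among the members was a fall between Day0 and Day2 in LSK cells. In libraries labelled Gata2, 24 of 39 members were lower at Day2 at an adjusted p under 0.05 (edgeR, all genes tested) and 0 were higher; over all genes tested, 4.82% were called lower, 4.48% higher and 9.3% in either direction. In WT, 28 of 39 were lower and 0 higher, against 17.9% of all genes lower, 11.9% higher and 29.9% either way. Unadjusted p was under 0.05 for 32 members in Gata2 (25.4% of all genes) and for 30 in WT (43.1%). The median log2 fold change of the members was -1.91 in Gata2 and -1.48 in WT, beside -0.07 and -0.11 over all genes. All Day2 libraries lay below all Day0 libraries for 36 members in Gata2 (34.4% of all genes did so) and for 30 members in WT (26.3%). In both genotypes 30 members did so, as at most 26.3% of all genes can. The opposite order held for 0 members in Gata2 (25.9% of all genes) and for 1, Ifitm3, in WT (25.3%).

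Some 23 genes were called lower in both genotypes. Of all genes, at most 4.82% can be, since that share was called lower in Gata2. Stat2, Ifih1, Ifit1, Mx2 and Trim30a were called in WT alone and Oas1g in Gata2 alone. None of these 6 passed the test of the difference between genotypes: the smallest adjusted p, that of Trim30a, was 0.465 (edgeR). The remaining 10 were called in neither: Eif2ak2, Ifit2, Ifit3b, Herc6, Mx1, Rsad2, Cmpk2, Ifitm3, Slfn5 and Lgals3bp. With Day0_WT replicate 1 left out, most members were still lower in both genotypes, while calls over all genes rose in Gata2 and fell in WT. The WT count depended on the fit and was 13 by limma voom and 16 with the WT libraries fitted alone. Calls over all genes in either direction were also fewer there. They were 1334 of 19162 by limma voom and 1199 of 17619 with WT alone, against 5720 of 19162 in the main fit. The Gata2 count rests on few libraries and was 14 without Day0_Gata2 replicate 3, where 783 of 19065 genes were called, against 1782 of 19162. It was also lower without either Day2_Gata2 library, and so were calls over all genes.

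**Figure D2:**
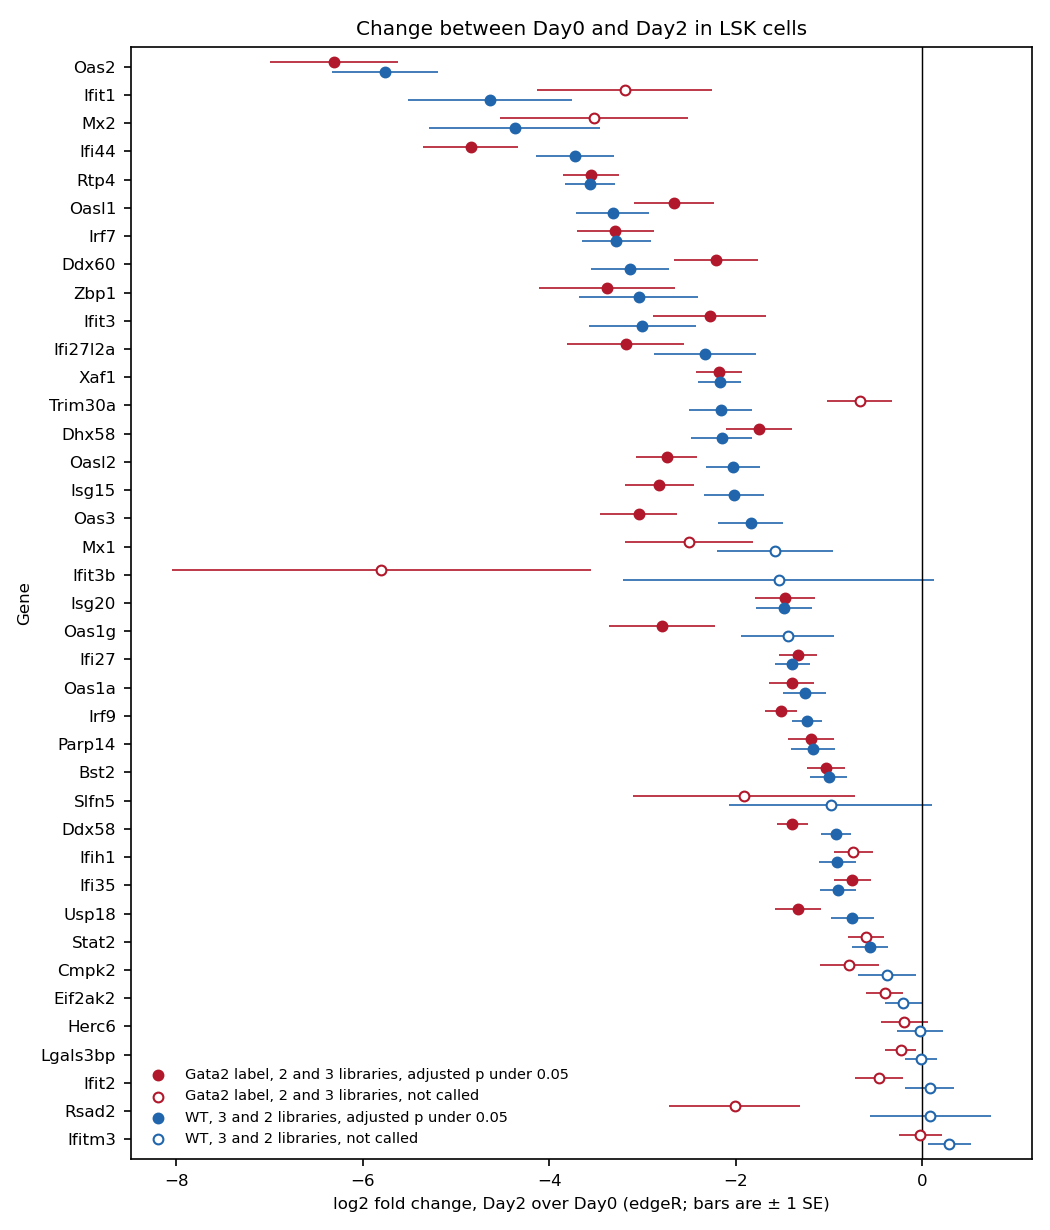
Horizontal position is the log2 fold change of Day2 over Day0 with 1 standard error on either side, for libraries labelled Gata2 (red) and WT (blue), and filled points passed an adjusted p of 0.05. Genes run from Oas2, at -6.31 in Gata2 and -5.76 in WT, down to Ifitm3 near 0.

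Among the regulators, Irf7, the factor that amplifies interferon production, fell most. It had 6.9 and 6.98 CPM in Day2_Gata2 and 61, 51.1 and 92.6 CPM in Day0_Gata2. In WT it had 3.77, 8.61 and 8.67 CPM at Day2 and 68.8 and 65.1 CPM at Day0. The Day2 and Day0 libraries were far apart in both genotypes, with log2 fold changes of -3.29 (SE 0.41, adjusted p 0.00185) in Gata2 and -3.28 (SE 0.37, adjusted p 0.000547) in WT. Irf7 shares exon bases with the neighbouring Phrf1 on the other strand, and Irf9 with Rnf31 on its own strand, and the counting rule is not given.

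Irf9, the DNA-binding partner of Stat2, fell less. It had 35.1 and 38.4 CPM in Day2_Gata2 and 101, 97.5 and 115 CPM in Day0_Gata2, a change of -1.51 on the log2 scale (SE 0.17, adjusted p 0.000986). Day2_WT libraries had 43.1, 43.2 and 36.6 CPM and Day0_WT libraries 81.3 and 108 CPM, a change of -1.23 (SE 0.16, adjusted p 0.00103). Stat2 moved little: 49.4 and 36.6 CPM in Day2_Gata2 stood against 57.6, 59.6 and 77.9 CPM in Day0_Gata2, and the change of -0.60 was not called (adjusted p 0.0858). In Day2_WT it had 48.7, 42.6 and 44.5 CPM, against 66.2 and 65.1 CPM in Day0_WT, and the change of -0.56 passed narrowly (adjusted p 0.0485).

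Of the 6 sensors of foreign nucleic acid, 4 fell in Gata2 and 5 in WT. Ddx60, a helicase related to the RNA sensors, had 4.8 and 2.94 CPM in Day2_Gata2 and 17.3, 18.6 and 17.9 CPM in Day0_Gata2. The WT levels were 5.74, 3.61 and 4.22 CPM at Day2 and 55.9 and 21.7 CPM at Day0. The groups did not overlap, and the log2 fold changes were -2.21 (SE 0.45, adjusted p 0.016) in Gata2 and -3.13 (SE 0.42, adjusted p 0.00119) in WT, where the change was -2.29 without the Day0 library that stood apart. Dhx58 (LGP2, which tunes signalling by the other RNA sensors) had 12.2 and 12.6 CPM in Day2_Gata2 and 37.9, 36.4 and 50.3 CPM in Day0_Gata2. Levels in WT were 10.1, 15.3 and 11.3 CPM at Day2, against 72.3 and 33.7 CPM at Day0, and it fell by 1.75 in Gata2 and 2.15 in WT on the log2 scale (adjusted p 0.0159 in Gata2 and 0.00234 in WT).

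Ddx58 encodes RIG-I, a cytoplasmic sensor of viral RNA. Its level was 23.4 CPM in both Day2_Gata2 libraries and 56.2, 63 and 65.3 CPM in Day0_Gata2, a change of -1.39 (SE 0.17, adjusted p 0.00166). Day2_WT libraries had 32.3, 28.3 and 26.5 CPM and Day0_WT libraries 48.8 and 59.5 CPM, a change of -0.92 (SE 0.16, adjusted p 0.00416). Zbp1, which senses left-handed nucleic acid and can trigger necroptosis, fell by 3.38 in Gata2 and by 3.04 in WT on the log2 scale (adjusted p 0.0212 in Gata2 and 0.0091 in WT). Eif2ak2, the RNA-activated kinase PKR that stops translation, was not called in either genotype, with changes of -0.40 in Gata2 and -0.20 in WT.

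The OAS family makes the oligoadenylates that switch on RNase L, and all 6 of its members fell in Gata2 and 5 of 6 in WT. Oas2 changed most of all 39 genes. It had 0.786 and 0.177 CPM in Day2_Gata2 and 31.9, 29 and 54.5 CPM in Day0_Gata2. Its WT libraries had 1.33, 0.968 and 1.07 CPM at Day2 and 79.6 and 39.9 CPM at Day0. Oas2 was at 1.33 CPM or less in every Day2 library, and the fitted fall was 79.4-fold in Gata2 (log2 -6.31, SE 0.69, adjusted p 0.000907) and 54.3-fold in WT (log2 -5.76, SE 0.57, adjusted p 0.000328).

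Oasl1, known in mice for holding back translation of Irf7, had 3.13 and 4.49 CPM in Day2_Gata2 and 24.6, 17.5 and 30 CPM in Day0_Gata2. In Day2_WT it had 2.65, 2.2 and 3.76 CPM, against 36.3 and 19.7 CPM in Day0_WT. These levels gave changes of -2.66 (SE 0.43, adjusted p 0.00546) in Gata2 and -3.32 (SE 0.39, adjusted p 0.000692) in WT. Its neighbour Oasl2 had 14 and 10.1 CPM in Day2_Gata2 and 73.3, 70 and 98 CPM in Day0_Gata2, and it had 12.8, 16.8 and 17.1 CPM in Day2_WT and 42 and 83.8 CPM in Day0_WT. The changes of Oasl2 were -2.74 in Gata2 and -2.03 in WT (adjusted p 0.00152 in Gata2 and 0.00173 in WT). Oas3 had 5.94 and 3.71 CPM in Day2_Gata2 and 28.5, 37.6 and 53.3 CPM in Day0_Gata2, a change of -3.04 (adjusted p 0.00255). In WT, Oas3 had 7.56, 6.17 and 6.25 CPM at Day2 and 16 and 31 CPM at Day0, a change of -1.84 (adjusted p 0.00628). Oas1a and Oas1g share 57.6% and 45.7% of their 50-base stretches with other genes, mostly with each other, so reads could be split between them. Oas1a was called in both genotypes and Oas1g in Gata2.

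The IFIT proteins bind viral RNA, and this family was uneven. Ifit3 was called in both genotypes, 4.86-fold lower in Gata2 and 8.01-fold lower in WT (adjusted p 0.0475 in Gata2 and 0.00583 in WT). It shares 51.2% of its 50-base stretches with Ifit3b, so both values are uncertain. Ifit3b itself had 2.4 CPM or less in every LSK library, with 0.0197 and 0.0392 CPM in Day2_Gata2 and 1.46, 1.48 and 2.4 CPM in Day0_Gata2. In WT, Ifit3b had 0, 0.464 and 0 CPM at Day2 and 0 and 0.859 CPM at Day0, and it was called in neither genotype. Ifit1 fell by 4.64 on the log2 scale in WT (adjusted p 0.00583), and its change of -3.19 in Gata2 was not called (adjusted p 0.0651). In WT it had 0.683, 2.3 and 0.776 CPM at Day2, against 47.4 CPM in Day0_WT replicate 1 and 13.6 CPM in replicate 2. That replicate 1 is the library that stood apart, and for Ifit1 it lay above all other Day0 libraries. In Gata2, Ifit1 had 3.34 and 0.471 CPM at Day2 and 15.6, 13.3 and 23.4 CPM at Day0. Ifit2 was not called, at -0.46 in Gata2 and 0.08 in WT.

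Of the ubiquitin-like pathway, Isg15 and the protease Usp18, which removes Isg15 from proteins and damps the receptor, fell in both genotypes. Isg15 had 2.63 and 2.28 CPM in Day2_Gata2 and 18.5, 12.7 and 21 CPM in Day0_Gata2. In WT it had 3.03, 3.59 and 4.22 CPM at Day2 and 11.7 and 17.3 CPM at Day0. The highest Day2 library lay well below the lowest Day0 library, and the changes were -2.82 (SE 0.37, adjusted p 0.00203) in Gata2 and -2.02 (SE 0.32, adjusted p 0.00261) in WT. Usp18 fell by 1.33 in Gata2 (adjusted p 0.0105) and by 0.75 in WT (adjusted p 0.0376) on the log2 scale. Herc6, the mouse ligase that attaches Isg15, was near level at 25 and 23.5 CPM in Day2_Gata2, against 24.5, 28.6 and 30.2 CPM in Day0_Gata2, and it was called in neither genotype.

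Among the other antiviral effectors the result was mixed, with 2 of 9 called lower in Gata2 and 4 of 9 in WT. Isg20, an exonuclease that degrades RNA, had 8.79 and 8.44 CPM in Day2_Gata2 and 22.2, 21.9 and 27.7 CPM in Day0_Gata2. Day2_WT libraries had 10.9, 14.8 and 15.5 CPM and Day0_WT libraries 49.1 and 25.8 CPM, and it fell by 1.47 in Gata2 and 1.48 in WT (adjusted p 0.0211 in Gata2 and 0.00763 in WT). Bst2 had 52.4 and 45.4 CPM in Day2_Gata2 and 106, 87.6 and 107 CPM in Day0_Gata2, a change of -1.03 (adjusted p 0.0141). In WT, Bst2 had 47.8, 60.4 and 69.5 CPM at Day2 and 131 and 102 CPM at Day0, a 2.01-fold fall (adjusted p 0.00653). These 2 genes were called in both genotypes.

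Trim30a, a regulator of Toll-like receptor signalling in mice, shows the weight of the library that stood apart. It had 34.3 and 42 CPM in Day2_Gata2 and 60.7, 53.7 and 68.3 CPM in Day0_Gata2, a change of -0.67 that was not called (adjusted p 0.264). In WT it had 27.6, 30.7 and 24.9 CPM at Day2, against 174 CPM in Day0_WT replicate 1 and 67.2 CPM in replicate 2, a change of -2.16 (adjusted p 0.00248). Without Day0_WT replicate 1 it was still called in WT, at -1.31 (adjusted p 0.00132). Mx2 was also called in WT alone, with 0.609 and 0.235 CPM in Day2_Gata2 and 5.02, 2.74 and 6.91 CPM in Day0_Gata2 (change -3.52, adjusted p 0.0592). In WT, Mx2 had 0.815, 0.0807 and 0.199 CPM at Day2 and 10.5 and 4.49 CPM at Day0 (change -4.37, adjusted p 0.00888).

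Ifitm3, the most abundant member, was called in neither genotype. It had 231 and 388 CPM in Day2_Gata2 and 285, 269 and 387 CPM in Day0_Gata2, and its libraries overlapped (change -0.02, adjusted p 0.979). The WT levels were 304, 329 and 362 CPM at Day2 and 242 and 291 CPM at Day0 (change 0.29, adjusted p 0.362). Lgals3bp, the other abundant member outside the fall, had 191 and 287 CPM in Day2_Gata2 and 277, 268 and 294 CPM in Day0_Gata2, and 213, 207 and 241 CPM in Day2_WT against 222 and 215 CPM in Day0_WT. Rsad2 (viperin) was called in neither genotype but varied: it had 3.2 and 6.53 CPM in Day2_Gata2 and 17.5, 17.6 and 23.7 CPM in Day0_Gata2, and 14.1, 7.91 and 15.1 CPM in Day2_WT against 3.02 and 20 CPM in Day0_WT. Mx1 was called in neither, with 2.28 and 0.863 CPM in Day2_Gata2 against 8.05, 4.87 and 13.9 CPM in Day0_Gata2. Slfn5 had 3.26 and 2 CPM in Day2_Gata2 and 6.98, 9.5 and 13.2 CPM in Day0_Gata2. In WT, Slfn5 had 2.37, 2.22 and 2.55 CPM at Day2, and its Day0 libraries were 0.0465 CPM in replicate 1 and 9.24 CPM in replicate 2.

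Of the other interferon-induced genes, 7 of 8 fell in each genotype. Rtp4, a zinc finger chaperone with antiviral activity, had the lowest p of all members in both. It had 3.83 and 3.86 CPM in Day2_Gata2 and 46.6, 40.6 and 48 CPM in Day0_Gata2, an 11.7-fold fall (log2 -3.55, SE 0.30, adjusted p 0.000238). Levels in WT were 4.08, 5.02 and 6.23 CPM at Day2 and 72 and 45.8 CPM at Day0, an 11.8-fold fall (log2 -3.56, SE 0.27, adjusted p 0.000105). The sizes in the 2 genotypes were within 1 SE of each other. The annotation places a longer transcript, Gm45338, over the same exons, and 11.6% of the 50-base stretches of Rtp4 are shared with it.

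Ifi44, a protein induced strongly by interferon, had 0.55 and 1.53 CPM in Day2_Gata2 and 24.4, 25.2 and 40 CPM in Day0_Gata2. Its WT libraries had 1.9, 1.79 and 2.41 CPM at Day2 and 23.5 and 29.4 CPM at Day0. The groups were well separated, with changes of -4.84 (SE 0.51, adjusted p 0.000732) in Gata2 and -3.72 (SE 0.42, adjusted p 0.000561) in WT. Xaf1, a binding partner of the apoptosis inhibitor XIAP, had 5.43 and 6.71 CPM in Day2_Gata2 and 26.8, 24.2 and 31.7 CPM in Day0_Gata2 (change -2.18, adjusted p 0.00112). In WT, Xaf1 had 6.79, 6.55 and 6.03 CPM at Day2 and 24.8 and 32.3 CPM at Day0 (change -2.17, adjusted p 0.000441). Ifi27 had 57.5 and 66.8 CPM in Day2_Gata2 and 149, 150 and 171 CPM in Day0_Gata2, and 45.7, 60.2 and 74.2 CPM in Day2_WT against 153 and 156 CPM in Day0_WT. Its changes were -1.33 in Gata2 and -1.39 in WT (adjusted p 0.00423 in Gata2 and 0.00129 in WT).

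**Figure D3:**
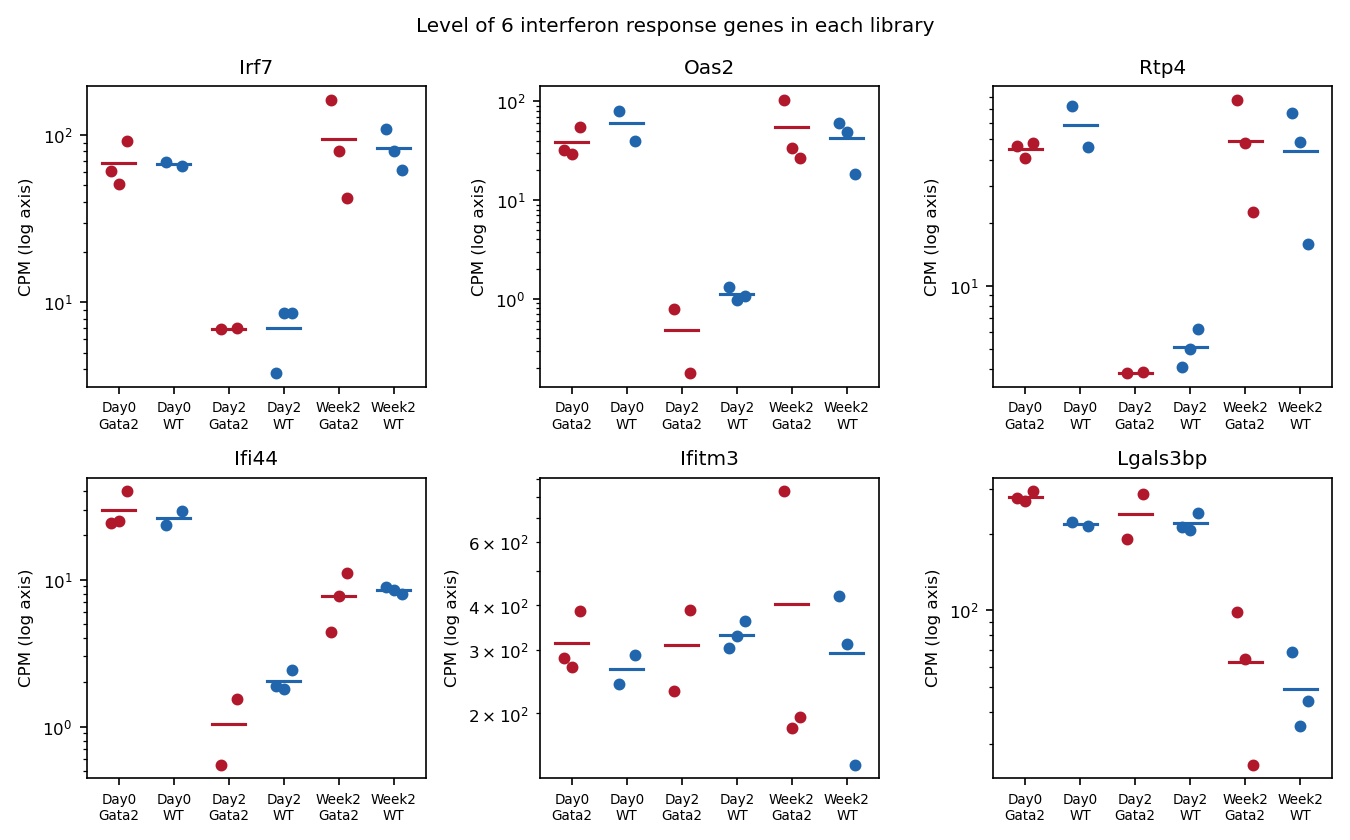
CPM on a log axis in every library for 6 members, with Day0, Day2 and Week2 from left to right and Gata2 (red) left of WT (blue) at each time; bars are group means. Irf7, Oas2, Rtp4 and Ifi44 are low in all 5 Day2 libraries, Ifitm3 and Lgals3bp are level there, and Week2 libraries spread widely.

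The ISRE match was found both in genes that fell and in genes that were not called. Of the 17 members with a match, 11 were called lower in WT, as were 8 of the 12 with a window and no match, among them Irf7, Irf9, Ifi44, Xaf1 and Oasl2. The absence of these letters in this window says nothing about binding elsewhere.

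Other genes of the pathway were taken by role, and their counts stand against the same shares of all genes (4.82% lower and 4.48% higher in Gata2, 17.9% lower and 11.9% higher in WT). Of 21 interferon genes (type I, type III and Ifng), none passed the filter in LSK cells: together they had 1 to 23 counts per library, and the highest was Ifne at 0.418 CPM. Of 21 receptor and signalling genes, 1 fell and 0 rose in Gata2, and 4 fell and 2 rose in WT, which is near those shares. Irf1, which binds the same promoters and is best known downstream of interferon gamma, was the one that fell in both, by 1.08 in Gata2 (adjusted p 0.0029) and 1.18 in WT (adjusted p 0.000724) on the log2 scale. Irf3 and Il10rb were among those that fell in WT, and Socs3, a feedback inhibitor, and Jak1 rose there. The receptor chain Ifnar1 was called in neither genotype, with changes of -0.17 in Gata2 and 0.32 in WT, nor was Ifnar2, with -0.29 in Gata2 and 0.33 in WT. Of 20 genes of the sensing pathways upstream of interferon, 0 fell and 1 rose in Gata2, and 2 fell and 2 rose in WT. Myd88, the adaptor of Toll-like receptors, rose in both, by 0.95 in Gata2 (adjusted p 0.0186) and 1.26 in WT (adjusted p 0.00341).

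A further list of 68 interferon-induced genes, of which 66 were measured, had 17 called lower and 2 higher in Gata2, and 28 lower and 4 higher in WT. Of all genes, 4.82% were lower and 4.48% higher in Gata2, and 17.9% lower and 11.9% higher in WT. The median change over the list was -0.69 in Gata2 and -0.59 in WT, beside -0.07 in Gata2 and -0.11 in WT over all genes. Phf11b fell by 3.84 in Gata2 (adjusted p 0.000829) and by 3.26 in WT (adjusted p 0.000507). Helz2, a coactivator helicase, fell by 1.61 in Gata2 (adjusted p 0.0127) and by 2.78 in WT (adjusted p 0.000465). Ube2l6 and Uba7, the enzymes that load Isg15 onto its targets, fell by 1.49 and 1.16 in Gata2 and by 1.29 and 1.11 in WT. Ifitm1, a close relative of Ifitm3, rose instead, by 1.49 in Gata2 (adjusted p 0.00548) and 1.86 in WT (adjusted p 0.00142), and so did Cd47, by 0.57 in Gata2 and 0.52 in WT.

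Markers of other cells also differed between Day2 and Day0, and their part in the fall was not tested. In bulk RNA, fewer cells of a type and less RNA per cell cannot be told apart. Summed CPM of 8 B cell markers was 19.3 to 31.2 at Day2 and 64 to 142 at Day0, with Ms4a1, Ebf1 and Pax5 at 0 in 4 of the 5 Day2 libraries. Summed CPM of 8 T and NK cell markers was 105 to 150 at Day2 and 146 to 274 at Day0, with Cd3e, Cd3g, Gzma and Cd2 at 0 in all 5 Day2 libraries. Nearly all of this sum was Nkg7, at 104 to 149 CPM at Day2 and 140 to 267 CPM at Day0. Every other marker of that list was at 4.23 CPM or less in each LSK library. Summed CPM of 8 neutrophil markers was 610 to 1724 at Day2 and 72.9 to 271 at Day0, and that of 11 monocyte and macrophage markers was 1156 to 2264 at Day2 and 616 to 1541 at Day0. Plasmacytoid dendritic cells are strong interferon producers, and their 10 markers summed to 233 to 343 CPM at Day2 and 267 to 398 CPM at Day0, and the 2 ranges overlapped. Of these 10, Siglech and Cox6a2 were called higher and 0 lower at Day2 in Gata2, whereas in WT Siglech was called higher and Pacsin1, Runx2, Tcf4 and Cd209d lower. Most of the summed CPM was Tcf4, at 101 to 210 CPM over the LSK libraries, and Runx2, at 56.7 to 127 CPM. Siglech had 23.1 to 36.1 CPM at Day2 and 1.72 to 12.7 CPM at Day0. Ly6d, which was not called, had 0.256 to 2.9 CPM at Day2 and 3.58 to 9.65 CPM at Day0. Of 9 LSK markers, Ly6a, Flt3 and Procr fell in both genotypes. Ly6a had 19.5 and 32.2 CPM in Day2_Gata2 against 68.8, 63.5 and 69.5 CPM in Day0_Gata2, and 22.5, 28.8 and 31.3 CPM in Day2_WT against 54.1 and 62 CPM in Day0_WT. Kit, the other sort marker, ran from 407 to 652 CPM at Day2 and from 471 to 708 CPM at Day0.

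No member differed between Gata2 and WT libraries at an adjusted p under 0.05 in any population in the edgeR fit. At Day0, 0 of 39 members and 0% of all genes were called between Gata2 and WT (edgeR), and DESeq2 and limma voom also called 0 members. Unadjusted p was under 0.05 for 3 members, against 13.5% of all genes. The median log2 difference, Gata2 over WT, was 0.03, beside 0.02 over all genes, and 1 member lay wholly lower in Gata2 (14% of all genes) and 3 wholly higher (18.8%). The 3 genes with a low unadjusted p were Trim30a at -1.02 (p 0.0127), Ddx60 at -1.15 (p 0.0185) and Isg20 at -0.68 (p 0.0484), with adjusted p 0.341, 0.341 and 0.367. All 3 rest on Day0_WT replicate 1. Ddx60, for example, had 17.3, 18.6 and 17.9 CPM in Day0_Gata2, against 55.9 CPM in that library and 21.7 CPM in Day0_WT replicate 2, and the difference was -0.27 without it. For Trim30a the difference was -0.14 without it, and for Isg20 -0.11.

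Oas3 and Lgals3bp came next by p at Day0. Oas3 had 28.5, 37.6 and 53.3 CPM in Day0_Gata2 and 16 and 31 CPM in Day0_WT, with a log2 difference of 0.74 (adjusted p 0.392). Lgals3bp had 277, 268 and 294 CPM in Day0_Gata2 and 222 and 215 CPM in Day0_WT, a difference of 0.33 (adjusted p 0.401). Among the 5 Day0 libraries, Day0_WT replicate 1 was the highest for 10 members and the lowest for 17, whereas it was highest for 38.6% and lowest for 48.5% of all genes. Day0_Gata2 replicate 3 was the highest for 27 of 39 members, against 18% of all genes. When Day0_WT replicate 2 was left out, so that the library standing apart alone represented WT, 12 members were called: 9 higher in Gata2 (25.4% of all genes) and 3 lower (14.5%), which were Ddx60, Isg20 and Trim30a. When replicate 1 was left out instead, 0 members were called.

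At Day2, again 0 members were called (0% of all genes; edgeR, DESeq2 and limma voom alike for the members), and 0 had an unadjusted p under 0.05, against 5.58% of all genes. The median difference was -0.09, beside 0.00 over all genes. Gata2 libraries lay wholly below WT libraries for 10 members (11.2% of all genes) and wholly above for 1 (9.89%). The lowest p belonged to Ifi44, with 0.55 and 1.53 CPM in Day2_Gata2 and 1.9, 1.79 and 2.41 CPM in Day2_WT, a difference of -0.96 (SE 0.43, adjusted p 0.892). Isg20 followed at -0.67, with 8.79 and 8.44 CPM in Day2_Gata2 and 10.9, 14.8 and 15.5 CPM in Day2_WT (adjusted p 0.904). Oas2 differed by -1.22, Rsad2 by -1.34 and Ddx58 by -0.31, all with adjusted p of 0.92 or more. Each of these 5 genes was lower in both Gata2 libraries than in all 3 WT libraries.

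**Figure D4:**
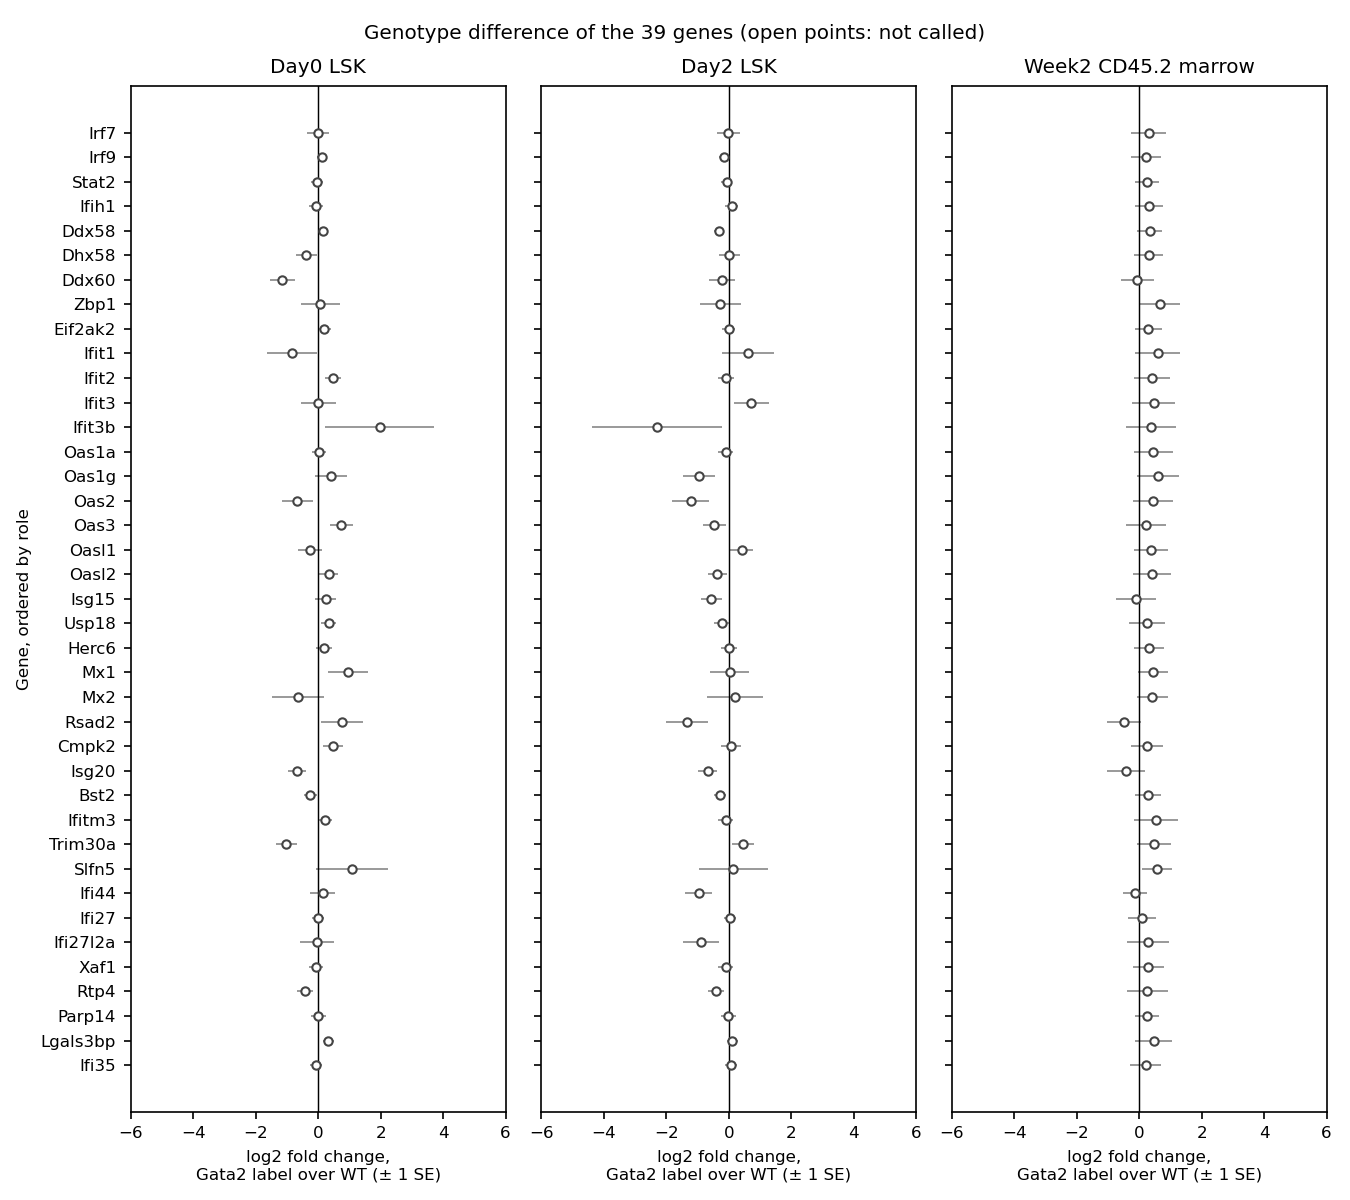
Horizontal position is the log2 difference of Gata2 over WT libraries with 1 standard error on either side, for each of the 39 genes at Day0, Day2 and Week2. All points are open because none was called by edgeR, and at Week2 34 of 39 points lie above 0.

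The change in the genotype difference between Day0 and Day2 was likewise not called for any member (0% of all genes; 2 members and 10.4% of all genes at an unadjusted p under 0.05), with a median of -0.20 beside -0.06 over all genes. The lowest p were those of Trim30a at 1.49 (adjusted p 0.465) and Oas3 at -1.20 (adjusted p 0.475), followed by Rsad2 at -2.10 (adjusted p 0.484), Ddx58 at -0.47 and Ifi44 at -1.11. Between Day0 and Week2, 0 members were called (0% of all genes), and 1 member, Trim30a at 1.38 (adjusted p 0.876), had an unadjusted p under 0.05, against 4.68% of all genes. DESeq2 and limma voom called 0 members in both. Without Day0_WT replicate 2, the library standing apart alone represented WT at Day0, and calls rose for all genes as well as for members. The wide errors of low genes limit these tests, as with Ifit3b, whose difference moved by -4.26 between Day0 and Day2.

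At Week2 the cells are marrow that carries CD45.2, a different and more mature population, so its levels are described beside those of LSK cells and not tested against them. Ifi27l2a, which encodes a small hydrophobic protein, averaged 563 CPM per kb there, against 35.4 at Day0 and 5.84 at Day2, and became the most abundant member. Its CPM was 272, 431 and 135 in Week2_Gata2 and 427, 115 and 184 in Week2_WT. Ifitm3 stayed high at 514 CPM per kb, whereas Lgals3bp was at 19.7 CPM per kb, below its 89.6 at Day0 and 80 at Day2. Ifi44 was at 1.32 CPM per kb, against 4.65 at Day0 and 0.267 at Day2. Irf7, at 23.7 CPM per kb, was near its Day0 level of 17.9, and so was Oas2, at 10.9 beside 10.6. The 8 neutrophil markers summed to 19623 to 79495 CPM at Week2, and the 8 B cell markers to 2986 to 5058 CPM.

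Between genotypes at Week2, 0 members were called by edgeR or DESeq2 (0% of all genes by edgeR), and 0 had an unadjusted p under 0.05 (0.238% of all genes). Most members leaned one way: 34 were higher in Gata2 and 5 lower, with a median of 0.30 beside 0.00 over all genes, but groups overlapped for all 39 members (0.883% of all genes lay wholly lower and 0.702% wholly higher). Slfn5 had the lowest p, with 49.6, 25.4 and 18.6 CPM in Week2_Gata2 and 26, 24.9 and 16.8 CPM in Week2_WT (difference 0.57, SE 0.48, adjusted p 1). Zbp1 had 123, 47.2 and 29.1 CPM in Week2_Gata2 and 70.3, 36.9 and 25.2 CPM in Week2_WT (0.66, adjusted p 1). Mx1 had 19.2, 18.2 and 11.8 CPM in Week2_Gata2 and 18.3, 10.5 and 9.08 CPM in Week2_WT, a difference of 0.44. Oas1g had 26.5, 9.24 and 7.01 CPM in Week2_Gata2 and 16.4, 7.21 and 5.29 CPM in Week2_WT, a difference of 0.61. In the other direction, Rsad2 had 61.2, 44.7 and 17.7 CPM in Week2_Gata2 and 62.2, 40.4 and 90.2 CPM in Week2_WT, a difference of -0.48. In each of these genes the spread within a genotype was larger than the difference between genotypes.

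The spread within Week2 followed libraries. Week2_Gata2 replicate 1 was the highest of the 6 for 28 of 39 members, against 14.2% of all genes, and Week2_Gata2 replicate 3 was the lowest for 19 and Week2_WT replicate 3 for 14. The members summed to 4068, 2515 and 1565 CPM in Week2_Gata2 and to 3199, 2070 and 1701 CPM in Week2_WT. Without Week2_Gata2 replicate 1 the median difference was -0.19, the differences of Zbp1 and Oas1g changed direction, to -0.22 and -0.30, and that of Slfn5 was -0.00. The limma voom fit with weights on library quality called 26 members higher in Gata2 (12.3% of all genes higher), in a fit that called 12016 of 36485 genes. Neutrophil markers summed to 79495, 20493 and 22061 CPM in Week2_Gata2 and to 68480, 57261 and 19623 CPM in Week2_WT, and all 8 were detected. Their highest library was also the highest for the members, and their part in the spread was not tested. Erythroid markers ran from 61.3 to 8308 CPM and did not follow the genotype labels either.

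**Figure D5:**
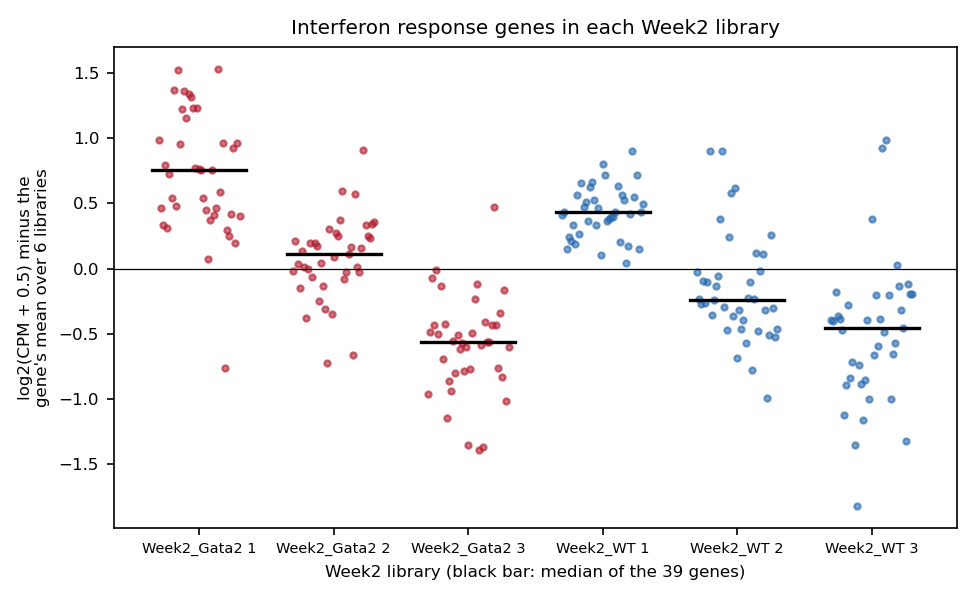
Each point is 1 of the 39 genes in 1 Week2 library, as log2(CPM + 0.5) minus the gene's mean over the 6 libraries, and black bars are medians. The medians are 0.76, 0.11 and -0.56 in Week2_Gata2 replicates 1 to 3 and 0.43, -0.24 and -0.45 in Week2_WT replicates 1 to 3, so the ranges of the 2 genotypes overlap.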

How the data were processed

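The authors deposited 1 table of raw read counts per gene for the 16 libraries, and these counts were used unchanged. The submitters' processing notes name Trimmomatic 0.38, STAR 2.5.2b and the build mm10. Counting program and strand setting are not given here in any source used. GENCODE M21 on GRCm38, which is mm10, gave symbols and exon lengths. The members, lists and named-gene rule were chosen with earlier results of these data known. Counts were tested in R 4.3.3 by the robust quasi-likelihood test of edgeR 4.0.16 after TMM scaling and filterByExpr, with Benjamini-Hochberg adjustment over all genes tested and a threshold of 0.05. One fit held the 10 LSK libraries as 4 groups (19162 genes), another the 6 Week2 libraries (36485), and a fit of all 16 (31164) compared the genotype differences at Week2 and Day0, which made 7 comparisons. CPM are TMM-scaled over all 16 libraries. Alternatives were RLE scaling, no filter, DESeq2 1.42.0, limma 3.58.1 voom with quality weights, the groups compared alone, the replicate number as a block, each library left out, and, added after the data were seen, a sex term (Ddx3y above 10 CPM counted as male). Where leaving out a library left 1 in a group, that library was assumed to vary like the others. Values in every library are given for the regulators, for up to 12 called members of lowest p per comparison over time, for the 5 of lowest p in each comparison, and for the 3 highest and 3 lowest members per kilobase in LSK cells. The fitting scripts were tested on simulated data.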

Additional observations from a re-analysis of the deposited data

How the results depend on the processing

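Across the alternatives, no member was called higher at Day2 in either genotype, and the members' median stayed negative in both. In WT, 13 members were called by limma voom and 16 with the groups fitted alone, and the median was -1.59 with RLE scaling and -1.16 with sex of the library in the model. In Gata2 the median was -1.59 with sex in the model. The median difference between genotypes at Week2 was 0.65 with sex in the model, beside 0.30 in the main fit. Deviations from the group means gave r from -0.74 to 0.55 between same-numbered Gata2 and WT libraries. With 2 or 3 libraries per group these values depend on each other, so they do not settle whether the numbers pair libraries. With the replicate number as a block, 15 members were called in Gata2, the Gata2 median was -1.69, and the median difference between the genotypes' changes was -0.02. Limma voom called 26 members at Week2.

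Leaving out 1 library gave 26 to 30 members called over time in WT (median -1.79 to -1.30) and 12 to 35 in Gata2 (-2.06 to -1.65). It gave 0 to 12 at Day0 (median -0.11 to 0.29), 0 to 0 at Day2 (-0.20 to -0.01) and 0 to 0 at Week2 (-0.19 to 0.86). It gave 0 to 12 for the difference between Day2 and Day0 (-0.33 to -0.06) and 0 to 3 for that between Week2 and Day0 (-0.23 to 0.42); every count above 0 in these 3 came without Day0_WT replicate 2. At Week2, leaving out 1 library gave -0.00 to 1 for Slfn5, -0.22 to 1.56 for Zbp1 and -0.30 to 1.64 for Oas1g, and the lowest of each came without Week2_Gata2 replicate 1. The cause of these shifts was not tested. Where Day0_WT replicate 2 was left out, calls over all genes rose as well. Calls over all genes between Day0 and Day2 also moved with the library left out. Where no group was cut to 1 library, they numbered 3191 to 4416 in WT and 698 to 1563 in Gata2, of 18864 to 19076 genes tested. The main fit called 5720 genes in WT and 1782 in Gata2, of 19162.

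Over all genes, calls over time in WT numbered 5720, against 1334 by limma voom, 1199 with the groups alone, 2747 with the block and 12386 without Day0_WT replicate 2. In Gata2 they numbered 1782, against 3430 by DESeq2, 4088 by limma voom, 5676 with the groups alone and 745 with the block. Between genotypes edgeR called 0 genes at every time, and DESeq2 called 382 at Day0, 144 at Day2 and 1 at Week2.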

Other observations

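Over the 10 LSK libraries, the genes outside the list whose log2(CPM + 1) followed the members' mean most closely, among 10409 protein-coding genes of 5 CPM or more, were Phf11b (Pearson r 0.992), itself interferon-induced, Akna (0.989), Tbr1 (0.988), Wnt7b (0.988) and Dmp1 (0.987). Over the 6 Week2 libraries they were Vps37a (0.999), Parl (0.999), Rabif (0.998), Hmgn2 (0.998) and Vti1a (0.996). These are descriptions over few libraries that share their depth and population, and the LSK values follow the split between Day0 and Day2. In the Week2 libraries the 21 interferon genes together had 783 to 2713 counts per library, and the highest was Ifng at 6.06 CPM. The members lie on 14 chromosomes, with 6 in the 2 OAS clusters of chromosome 5 and 4 IFIT genes side by side on chromosome 19. Exons of 11 members overlap those of another gene.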
